A study of Danio rerio with 6 samples.

Results

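The genes described here encode the tumor necrosis factor (Tnf) ligands and their receptors, the Toll-like receptors, the adaptors and kinases that both receptor families use, and the NF-kB transcription factors with their inhibitors. They were chosen by gene symbol, with a minimum of 10 reads in at least 3 of the 6 libraries, and 56 of the 14781 genes counted in the adult zebrafish spinal cord met that rule. RNA-seq was performed on 3 injured and 3 sham libraries to ask which genes change in the cord 1 week after transection (1 wpi). Injured fish underwent a complete transection of the cord. Sham fish were clutchmates in which skin and muscle were opened to expose the cord, which was left intact, and their treatment label reads uninjured. Tissue reached 2 mm rostral and 2 mm caudal of the lesion, or of the matching position in sham fish. The methods describe adult fish of both sexes and of the Ekkwill (EK) strain for all experiments, and the labels name no mutation or transgene in either group. How many fish went into each RNA sample is not stated in the sources used here, and nothing says that the libraries of a group came from separate fish, so that a p-value here covers only the spread of these libraries, which may in part be technical.

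Tnf ligands are trimeric, mostly membrane-anchored cytokines that recruit Traf adaptors and RIP kinases to their receptors. Toll-like receptors recognize microbial molecules and debris of damaged cells, and most of them signal through the adaptor Myd88, Irak kinases and Traf6. Both routes meet at the kinase Tak1 with its Tab partners and at the IKK complex, which marks the inhibitors of NF-kB for destruction and so lets NF-kB subunits enter the nucleus, where they also switch on the genes of their own inhibitors. In the injured cord of vertebrates these pathways are best known from microglia, macrophages and reactive glia.

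Libraries held 19310220 to 30147448 reads assigned to genes, and values are given as CPM, the reads of a gene relative to the library's reads in all genes, scaled with edgeR's TMM factors. The sham replicate 1 library stood apart from the others. Over 12 oocyte marker genes, summed CPM was 8.94 to 17.3 in injured libraries, 372 in sham replicate 1 and 8.64 and 24.0 in the other sham libraries. The sum over 17 macrophage and microglia markers was 8794 to 9841 CPM in injured libraries, 4654 CPM in sham replicate 1 and 2145 and 2212 CPM in the other sham libraries. The sum over 14 skeletal muscle markers also varied within groups, at 40569, 12135 and 16117 CPM in injured replicates 1 to 3 and at 20089, 8558 and 6254 CPM in sham replicates 1 to 3. Neuron markers, 11 genes, summed to 12439.9 to 13016 CPM in injured libraries and 16293 to 29264 CPM in sham libraries. Reads that HTSeq assigned to no gene made up 41.8% to 42.6% of the total in injured libraries, 44.3% in sham replicate 1, and 51.5% and 51.9% in sham replicates 2 and 3, and their part in the results was not tested. For 8367 of the 12804 genes tested, sham replicate 1 lay nearer to the injured mean than to the mean of the other sham libraries (log2 scale). Because sham replicate 1 stood apart, results are given with and without it, beside the same counts over all genes. That choice was made from these same data and leaves 3 injured and 2 sham libraries. Leaving out the sham library nearest to the injured ones can itself raise differences and narrow the sham spread. The p-values without it do not account for this.

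Of the 56 genes, 45 (80.4%) had a positive log2 fold change, injured over sham, against 47.3% of the 12804 genes tested. The median log2 fold change of the 56 genes was 0.47, and that of all genes tested was -0.03. In edgeR's quasi-likelihood test with Benjamini-Hochberg adjustment over all genes tested, 7 genes (12.5%) rose in injured cords at an adjusted p under 0.05, where 5.81% of all genes rose. These were the ligand tnfsf10l, the receptors tnfrsf1a, tnfrsfa and tnfrsf21, the adaptor traf6, the Toll-like receptor tlr5b and the NF-kB gene nfkb2. By the same test 0 of the 56 genes fell, where 4.83% of all genes fell. At an unadjusted p under 0.05, 31 of the 56 genes (55.4%, against 38.2% of all genes tested) passed in edgeR, 4 of them (chuk, ikbkg, tab3 and tnfaip8l3) with lower levels in injured cords. Every injured library was above every sham library for 27 genes (48.2%, against 22.9% of all genes) and below every sham library for those same 4 genes (7.14%, against 21.8% of all genes).

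Without sham replicate 1, edgeR called 36 of the 56 genes higher (64.3%, where 29.0% of all genes were called higher) and 6 lower (10.7%, where 28.2% were called lower). The 6 were chuk, ikbkg, tab3, tnfaip8l3, tnfaip8l2a and traf4a. DESeq2 on all 6 libraries called 20 of the genes higher (35.7%, against 14.7% of all genes) and 4 lower (7.14%, against 14.7% of all genes), and its calls held all 7 edgeR calls. Leaving out any of the other 5 libraries left edgeR with 0 calls among the 56 genes and over all genes, with 20 to 24 of the 56 at an unadjusted p under 0.05, where 23.5% to 26.7% of all genes were. DESeq2 still called 9 to 11 of them higher and 0 or 1 lower in those 5 fits, where it called 6.67% to 8.23% of all genes higher and 6.11% to 7.13% lower.

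**Figure D1:**
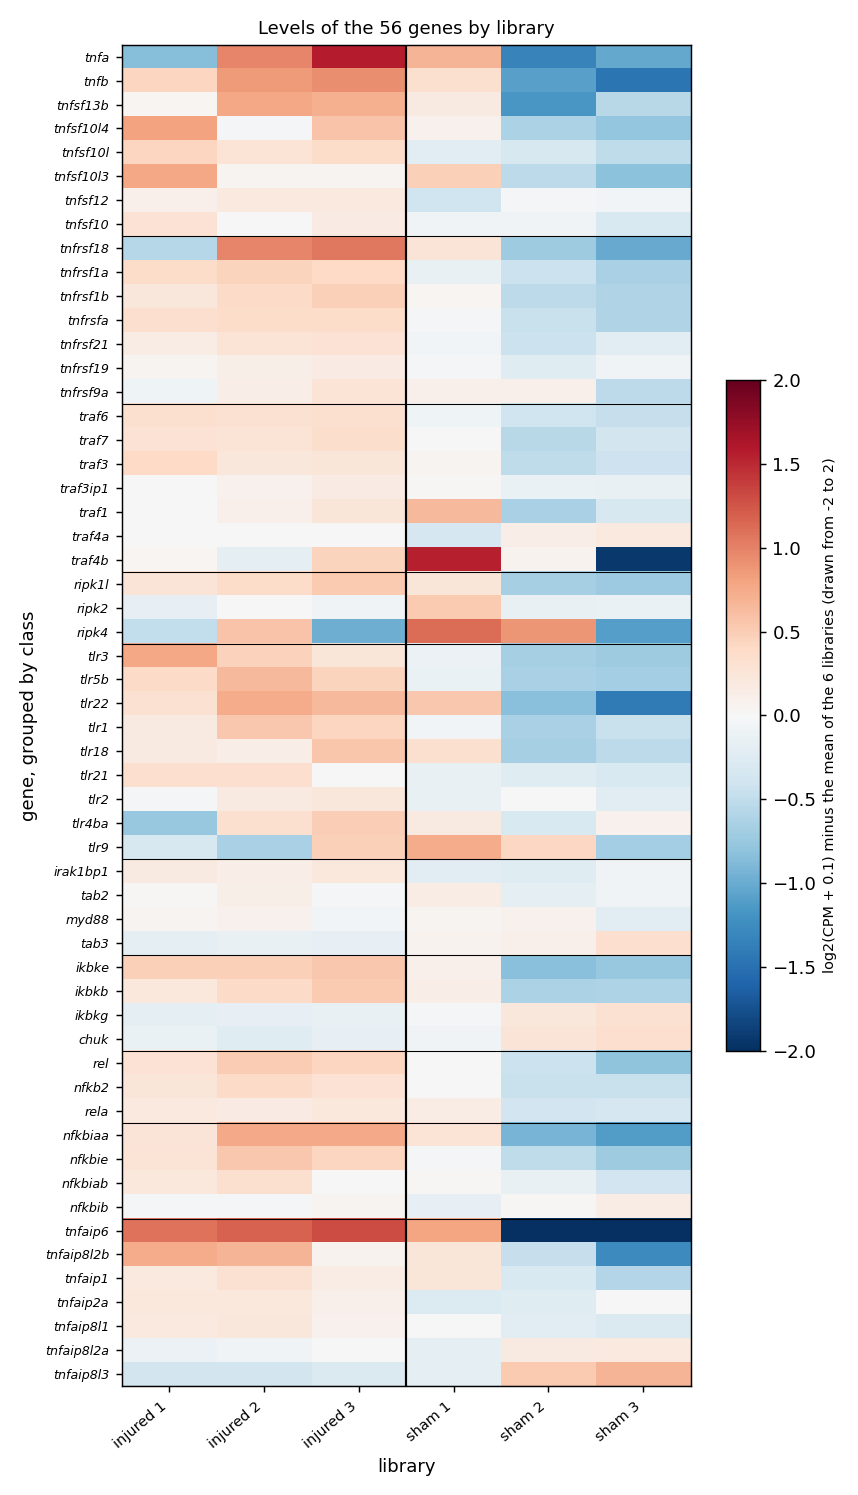
Level of each of the 56 genes (rows, grouped by class) in the 6 libraries (columns, injured left of sham), as log2(CPM + 0.1) minus the gene's mean over the 6 libraries, drawn from -2 to 2. Most rows are red in the 3 injured libraries and blue in sham replicates 2 and 3, while sham replicate 1 lies between them, and the rows of chuk, ikbkg, tab3 and tnfaip8l3 run the other way.

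The spread between replicates differed between the groups. The median coefficient of variation of the 56 genes was 7.26% in injured libraries and 21.8% in sham libraries. Over all genes tested it was 5.70% in injured and 16.1% in sham libraries, so the wider sham spread was not particular to the 56. The sham spread was wider for 52 of the 56 genes (92.9%, against 82.6% of all genes tested). Sham replicate 1 had the highest sham level for 42 of the 56 genes (75.0%), where it did so for 44.9% of all genes tested. It was the highest sham library for 38 of the 45 genes with a positive fold change (84.4%, against 68.1% of all such genes), and the lowest for 7 of the 11 with a negative one (63.6%, against 65.9% of all such genes).

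All 8 Tnf ligands had positive log2 fold changes, where 47.3% of all genes tested did, and their median was 0.84. In the edgeR test 1 of them, tnfsf10l, rose, where 5.81% of all genes rose. The gene tnfsf10l encodes a ligand related to mammalian TRAIL, which can trigger death of target cells. It had 41.7, 37.5 and 40.1 CPM in injured replicates 1 to 3, against 26.5, 24.7 and 21.7 CPM in sham replicates 1 to 3. All injured libraries were above all sham libraries, and sham replicate 1 lay close to the other sham libraries. The means differed 1.64-fold, with a log2 fold change of 0.71 ± 0.10 (SE, n = 3 each, edgeR adjusted p = 0.0301), and without sham replicate 1 the log2 fold change was 0.78 (edgeR adjusted p = 0.000686).

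The 2 genes for the Tnf cytokine itself were among the ligands at low read numbers. For tnfb, 4.59, 6.21 and 6.55 CPM were measured in injured libraries, against 4.25, 1.53 and 1.17 CPM in sham libraries. Sham replicate 1 was nearly at the level of injured replicate 1, and the other sham libraries were well below every injured library. Its log2 fold change was 1.32 ± 0.50 (SE, n = 3 each, edgeR adjusted p = 0.113). Without sham replicate 1 it was 2.099 and passed (edgeR adjusted p = 0.000889). The gene tnfa was counted with 3, 17 and 22 reads in injured libraries, against 10, 1 and 2 reads in sham libraries. The groups overlapped, since injured replicate 1 held fewer tnfa reads than sham replicate 1. Its log2 fold change of 1.47 ± 1.05 (SE, n = 3 each) did not pass (edgeR adjusted p = 0.336), nor did the value of 3.01 without sham replicate 1 (edgeR adjusted p = 0.0679). Of the fits run, only DESeq2 without sham replicate 1 called tnfa higher, with a log2 fold change of 3.14 (adjusted p = 0.0415).

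The ligand tnfsf12, known in mammals as TWEAK, had 47.1, 50.4 and 50.7 CPM in injured libraries, against 33.4, 43.1 and 42.3 CPM in sham libraries. The groups did not overlap, and here sham replicate 1 was the lowest library. This gave a log2 fold change of 0.32 ± 0.12 (SE, n = 3 each, edgeR adjusted p = 0.103), and 0.21 without sham replicate 1, where it passed (edgeR adjusted p = 0.0211). The B cell survival factor tnfsf13b, known in mammals as BAFF, had 3.75, 6.32 and 6.05 CPM in injured libraries, against 4.15, 1.58 and 2.46 CPM in sham libraries, and the groups overlapped at sham replicate 1. The remaining TRAIL relatives tnfsf10, tnfsf10l3 and tnfsf10l4 had log2 fold changes of 0.30 to 0.96 with no edgeR call. Without sham replicate 1, 6 of the 8 ligands were called higher, where 29.0% of all genes were, and tnfsf10 and tnfa were not.

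All 7 Tnf receptors had positive log2 fold changes, where 47.3% of all genes tested did, and their median was 0.70. Of the 7, 3 rose in edgeR's test, where 5.81% of all genes rose. The receptor tnfrsf1a carries the death domain through which Tnf signals in most cell types. It had 83.0, 87.4 and 84.8 CPM in injured libraries, against 58.0, 47.6 and 40.8 CPM in sham libraries. The injured libraries lay within a narrow range above all sham libraries. Mean levels differed 1.74-fold, with a log2 fold change of 0.80 ± 0.13 (SE, n = 3 each, edgeR adjusted p = 0.0345), and 0.95 without sham replicate 1 (edgeR adjusted p = 0.000261).

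A further receptor gene of the family, tnfrsfa, had 52.9, 53.8 and 54.3 CPM in injured libraries, against 40.9, 30.8 and 27.5 CPM in sham libraries. Again the injured libraries were nearly equal and the sham libraries were spread out below them. This gave tnfrsfa a log2 fold change of 0.70 ± 0.15 (SE, n = 3 each, edgeR adjusted p = 0.0443). For tnfrsf21, which encodes death receptor 6, a receptor studied in mammalian axon degeneration and myelinating cells, 174, 191 and 192 CPM were measured in injured libraries, against 151, 117 and 134 CPM in sham libraries. The groups did not overlap, with the smallest gap between injured replicate 1 and sham replicate 1. Its log2 fold change of 0.47 ± 0.11 (SE, n = 3 each) was just inside the threshold (edgeR adjusted p = 0.0495), and was not called with RLE scaling, with upper-quartile scaling or without a filter on low counts.

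The second classical Tnf receptor, tnfrsf1b, which in mammals is found mostly on immune and endothelial cells, had 7.89, 8.84 and 9.47 CPM in injured libraries, against 6.97, 4.64 and 4.41 CPM in sham libraries. These groups did not overlap either, although sham replicate 1 came within 1 CPM of injured replicate 1. In edgeR tnfrsf1b had a log2 fold change of 0.71 ± 0.21 (SE, n = 3 each, edgeR adjusted p = 0.0722), and DESeq2 gave an adjusted p of 0.0261. The orphan-type receptor tnfrsf19, known as TROY, had no overlap between its groups and a log2 fold change of 0.22, while tnfrsf9a and tnfrsf18 overlapped between groups with log2 fold changes of 0.19 and 1.21. None of these 3 receptors passed in edgeR or DESeq2 with all 6 libraries.

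**Figure D2:**
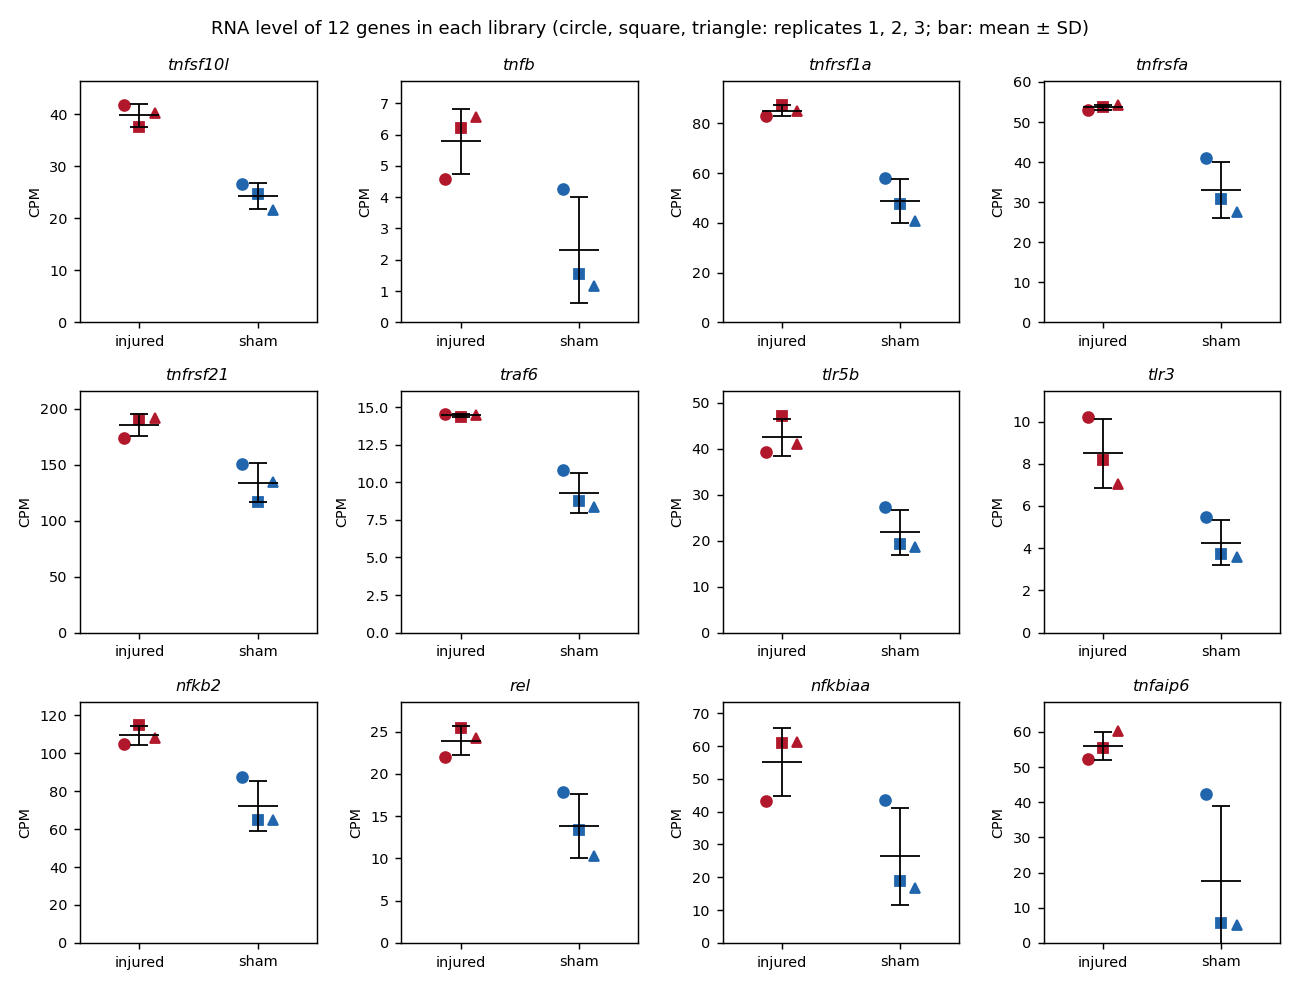
CPM of 12 of the genes in each library, with injured left of sham in every panel, symbols for replicates 1 to 3, and bars for the mean ± SD (n = 3 each; the axis starts at 0, so the lower bar of sham tnfaip6 is cut there). In every panel but that of nfkbiaa all injured points lie above all sham points, and the circle of sham replicate 1 is the highest sham point, as for tnfrsf1a with 83.0 to 87.4 CPM in injured libraries and 40.8 to 58.0 CPM in sham libraries.

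Of the 7 genes with Traf symbols, 1, traf6, rose in edgeR's test, where 5.81% of all genes rose. Traf6 is the ubiquitin ligase that Toll-like and Il1 receptors use to activate Tak1. It had 14.5, 14.3 and 14.5 CPM in injured libraries, against 10.8, 8.73 and 8.32 CPM in sham libraries. Injured libraries were almost identical, and all lay above the sham libraries. For traf6 the log2 fold change was 0.64 ± 0.13 (SE, n = 3 each, edgeR adjusted p = 0.0424), a 1.55-fold difference in mean CPM. Levels of traf7 were 73.1, 72.0 and 76.2 CPM in injured libraries and 59.98, 40.7 and 46.4 CPM in sham libraries, with a log2 fold change of 0.59 ± 0.15 (SE, n = 3 each, edgeR adjusted p = 0.0525). Traf7 binds the kinase Mekk3 in mammalian cells. For traf3, a brake on the non-canonical NF-kB pathway, 16.7, 14.8 and 15.02 CPM were measured in injured libraries, against 13.2, 8.92 and 9.53 CPM in sham libraries. Groups did not overlap for either gene, the log2 fold change of traf3 was 0.56 ± 0.17 (SE, n = 3 each, edgeR adjusted p = 0.0761), and DESeq2 called both genes higher (adjusted p = 0.00482 for traf7 and 0.0306 for traf3).

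The other Traf symbols, traf1, traf4a, traf4b and traf3ip1, overlapped between groups, with log2 fold changes of -0.42 to 0.18. Traf3ip1 is a component of intraflagellar transport in cilia and entered by its symbol. The level of traf4a was nearly constant in injured libraries (98.6, 100.2 and 99.5 CPM), against 79.1, 109 and 114 CPM in sham libraries, with sham replicate 1 the lowest library. Its log2 fold change was -0.02 with all libraries (edgeR adjusted p = 0.926), and -0.17 without sham replicate 1, where it was called lower (edgeR adjusted p = 0.0188).

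Among the RIP kinases, ripk1l, the relative of the kinase Ripk1 that decides between survival and death at Tnf receptors, had 16.02, 17.4 and 19.3 CPM in injured libraries, against 15.96, 8.41 and 8.03 CPM in sham libraries. Sham replicate 1 was at the level of injured replicate 1, and the other sham libraries had about 8 CPM. For ripk1l the log2 fold change was 0.70 ± 0.28 (SE, n = 3 each, edgeR adjusted p = 0.127), and 1.096 without sham replicate 1 (edgeR adjusted p = 0.000481). The Nod receptor kinase ripk2 had 16.7, 18.7 and 17.8 CPM in injured libraries, against 26.9, 17.0 and 17.1 CPM in sham libraries. Only sham replicate 1 stood out, and the log2 fold change of ripk2 was -0.19 with that library and 0.06 without it, with no call in either edgeR fit. The epidermal kinase ripk4 was at 0.541 to 2.87 CPM in all libraries, with overlapping groups.

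The Toll-like receptors included 9 genes, of which 8 had positive log2 fold changes, where 47.3% of all genes tested did. The class median was 0.54, and 1 of the 9 rose in edgeR's test, where 5.81% of all genes rose. The receptor for bacterial flagellin, tlr5b, had 39.2, 47.1 and 41.1 CPM in injured libraries, against 27.4, 19.3 and 18.7 CPM in sham libraries. Every injured library exceeded every sham library by more than 10 CPM. Its log2 fold change of 0.96 ± 0.17 (SE, n = 3 each) was the largest of the 7 edgeR calls (edgeR adjusted p = 0.0365), and was 1.16 without sham replicate 1 (edgeR adjusted p = 0.000272). The receptor for double-stranded RNA, tlr3, had 10.2, 8.18 and 7.06 CPM in injured libraries, against 5.48, 3.72 and 3.58 CPM in sham libraries. The groups did not overlap, and the log2 fold change of 1.00 ± 0.24 (SE, n = 3 each) lay just outside the threshold (edgeR adjusted p = 0.05003; DESeq2 adjusted p = 0.00400).

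For tlr1, a receptor of the lipopeptide group, 12.7, 16.3 and 15.02 CPM were found in injured libraries, against 10.7, 7.11 and 8.16 CPM in sham libraries. Its groups did not overlap, with a log2 fold change of 0.76 ± 0.19 (SE, n = 3 each, edgeR adjusted p = 0.0530). The fish receptor tlr21, which senses CpG DNA, also had no overlap between groups, at 15.8 to 19.9 CPM in injured libraries and 12.7 to 14.2 CPM in sham libraries, and DESeq2 called it higher (adjusted p = 0.0161). The related tlr22 had 5.85, 7.99 and 7.42 CPM in injured libraries, against 6.92, 2.60 and 1.71 CPM in sham libraries. Here sham replicate 1 lay among the injured libraries, and the log2 fold change of tlr22 was 0.92 with it (edgeR adjusted p = 0.230) and 1.72 without it (edgeR adjusted p = 0.00183). The remaining receptors tlr2, tlr18, tlr4ba and tlr9 overlapped between groups, with log2 fold changes of -0.43 to 0.54. Of these tlr4ba and tlr9 were under 1 CPM in every library.

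Of the 4 genes for proteins downstream of the Toll-like receptors, 0 passed edgeR's adjusted threshold. An unadjusted p under 0.05 in edgeR was found for 2 of the 4, where 38.2% of all genes tested had one. DESeq2 called 1 of the 4, tab3, lower, where it called 14.7% of all genes lower. The common adaptor myd88 had 13.8, 14.1 and 12.9 CPM in injured libraries, against 13.8, 14.3 and 11.4 CPM in sham libraries. The libraries of both groups were intermixed, and the log2 fold change was 0.05 ± 0.12 (SE, n = 3 each, edgeR adjusted p = 0.773). The gene tab3, whose product tethers Tak1 to ubiquitin chains, had 46.1, 47.9 and 47.4 CPM in injured libraries, against 55.5, 56.8 and 66.5 CPM in sham libraries. It was below every sham library in every injured library, with a log2 fold change of -0.34 ± 0.09 (SE, n = 3 each, edgeR adjusted p = 0.0585; DESeq2 adjusted p = 0.0114). Its paralog tab2 overlapped between groups, at 24.1 to 26.9 CPM in injured libraries and 21.7 to 27.5 CPM in sham libraries. The fourth gene, irak1bp1, which encodes a binding partner of the kinase Irak1, had 7.47 to 7.88 CPM in injured libraries and 5.71 to 6.45 CPM in sham libraries, without overlap, and its log2 fold change was 0.36 ± 0.12 (SE, n = 3 each, edgeR adjusted p = 0.0916). For irak4 0 reads were counted in all 6 libraries, and irak4 is thus not among the 56 genes.

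The 4 IKK genes split in direction, although 0 of them passed edgeR's adjusted threshold with all 6 libraries. All 4 were at an unadjusted p under 0.05 in edgeR, where 38.2% of all genes tested were. DESeq2 called 2 of the 4 higher and 2 lower, where it called 14.7% of all genes higher and 14.7% lower. The catalytic subunit ikbkb, which serves canonical NF-kB activation by Tnf and Toll-like receptors, had 22.2, 25.2 and 27.6 CPM in injured libraries, against 21.1, 12.4 and 12.6 CPM in sham libraries. Sham replicate 1 was nearly level with injured replicate 1. For ikbkb the log2 fold change was 0.70 ± 0.23 (SE, n = 3 each, edgeR adjusted p = 0.0869; DESeq2 adjusted p = 0.0313). The related kinase ikbke, which acts outside the core complex in interferon and NF-kB responses, had 15.1, 15.2 and 15.7 CPM in injured libraries, against 11.6, 6.04 and 6.37 CPM in sham libraries. Its injured libraries were almost equal and above all sham libraries, and its log2 fold change was 0.94 ± 0.27 (SE, n = 3 each, edgeR adjusted p = 0.0658; DESeq2 adjusted p = 0.0108).

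The catalytic subunit chuk, the kinase of the non-canonical pathway, had 77.0, 71.7 and 75.7 CPM in injured libraries, against 80.8, 101 and 107 CPM in sham libraries. The regulatory subunit ikbkg, known as NEMO, had 67.2, 67.7 and 68.5 CPM in injured libraries, against 74.3, 88.7 and 93.9 CPM in sham libraries. For both genes every injured library was below every sham library, and sham replicate 1 was the sham library nearest to the injured ones. Log2 fold changes were -0.36 ± 0.11 for chuk (SE, n = 3 each, edgeR adjusted p = 0.0787) and -0.34 ± 0.10 for ikbkg (SE, n = 3 each, edgeR adjusted p = 0.0679). Without sham replicate 1 all 4 IKK genes were called by edgeR, where 29.0% of all genes were called higher and 28.2% lower. Log2 fold changes in that fit were 1.00 for ikbkb, 1.31 for ikbke, -0.47 for chuk and -0.43 for ikbkg. Their edgeR adjusted p-values were 0.000139 to 0.000848.

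Since both members of a ratio come from the same library, the balance between kinase genes was also expressed as reads within a library, a measure chosen after the values had been seen. There were 28.8, 35.1 and 36.5 ikbkb reads per 100 chuk reads in injured libraries, against 26.1, 12.3 and 11.8 in sham libraries. For ikbke the ratio was 19.7, 21.1 and 20.7 reads per 100 chuk reads in injured libraries, against 14.4, 5.999 and 5.96 in sham libraries. Both ratios were higher in every injured library than in every sham library, which follows from the levels of the genes given above. An exact permutation test gave p = 0.1 for each ratio (n = 3 each). That is the smallest 2-sided value this test can give with these libraries, so it adds nothing to the order of the libraries. The ratio of nfkb2 to chuk reads was also computed, with the same p in that test. Means were 33.5 ± 4.09 and 16.7 ± 8.12 for ikbkb, and 20.5 ± 0.7596 and 8.77 ± 4.84 for ikbke, in injured and sham libraries (SD, n = 3 each).

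**Figure D3:**
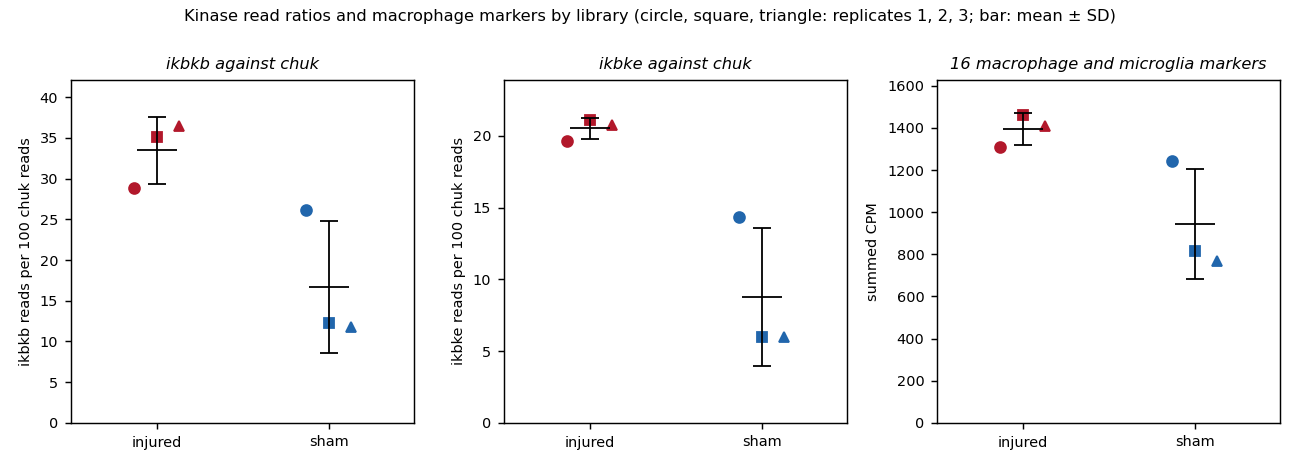
Reads of ikbkb (left) and ikbke (middle) per 100 chuk reads, and summed CPM of 16 macrophage and microglia markers without apoeb (right), in each library, with injured left of sham, symbols for replicates 1 to 3 and bars for the mean ± SD (n = 3 each). Injured libraries are highest in all panels, sham replicates 2 and 3 have 12.3 and 11.8 ikbkb reads and 5.999 and 5.96 ikbke reads per 100 chuk reads, and sham replicate 1 lies nearest to the injured libraries in each.

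The counts held 3 NF-kB subunit genes, and none under the symbols nfkb1 or relb. All 3 had higher levels in every injured library than in every sham library, where 22.9% of all genes did. Their median log2 fold change was 0.60. The gene nfkb2 encodes p100, which is processed to the p52 subunit of the non-canonical pathway. It had 105, 115 and 108 CPM in injured libraries, against 87.6, 64.7 and 64.8 CPM in sham libraries. The gap to sham replicate 1 was smaller than that to the other sham libraries, which were nearly equal. For nfkb2 the log2 fold change was 0.60 ± 0.13 (SE, n = 3 each, edgeR adjusted p = 0.0464), the value with upper-quartile scaling was not called (edgeR adjusted p = 0.0508), and without sham replicate 1 it was 0.76 (edgeR adjusted p = 0.000193).

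The gene rel encodes c-Rel, a subunit best known from lymphocytes and myeloid cells, and had 22.1, 25.5 and 24.3 CPM in injured libraries, against 17.8, 13.3 and 10.3 CPM in sham libraries. Its groups did not overlap, and its log2 fold change was 0.79 ± 0.21 (SE, n = 3 each, edgeR adjusted p = 0.0576; DESeq2 adjusted p = 0.00629). The p65 gene rela, the main activating subunit downstream of Tnf, had 17.9, 17.6 and 18.3 CPM in injured libraries, against 17.4, 11.98 and 12.4 CPM in sham libraries. Sham replicate 1 was within 1 CPM of the injured libraries. The log2 fold change of rela was 0.36 ± 0.16 (SE, n = 3 each, edgeR adjusted p = 0.156), and without sham replicate 1 it was 0.56 (edgeR adjusted p = 0.00108).

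Genes for inhibitors of NF-kB are themselves textbook targets of NF-kB. Of the 4 measured, 0 passed edgeR's adjusted threshold, and 3 had an unadjusted p under 0.05 in edgeR, where 38.2% of all genes tested did. DESeq2 called nfkbie and nfkbiaa higher, where it called 14.7% of all genes higher. The gene nfkbie, which encodes I-kappa-B epsilon, had 30.3, 36.5 and 34.0 CPM in injured libraries, against 24.9, 17.6 and 15.4 CPM in sham libraries. Its groups did not overlap, and the log2 fold change of 0.80 ± 0.19 (SE, n = 3 each) lay just outside the threshold (edgeR adjusted p = 0.0511; DESeq2 adjusted p = 0.00288). One of the paralogs for I-kappa-B alpha, nfkbiaa, had 43.3, 60.9 and 61.3 CPM in injured libraries, against 43.5, 19.0 and 16.6 CPM in sham libraries. Injured replicate 1 and sham replicate 1 were at the same level, the other injured libraries were above them, and the other sham libraries below. Its log2 fold change was 1.07 ± 0.39 (SE, n = 3 each, edgeR adjusted p = 0.106), and 1.63 without sham replicate 1 (edgeR adjusted p = 0.000724).

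The other paralog, nfkbiab, had 126, 136 and 109 CPM in injured libraries, against 112, 98.9 and 84.0 CPM in sham libraries, with a log2 fold change of 0.33 ± 0.13 (SE, n = 3 each, edgeR adjusted p = 0.126). For nfkbib, which encodes I-kappa-B beta, 82.8, 82.3 and 88.2 CPM were measured in injured libraries, against 75.8, 85.7 and 94.2 CPM in sham libraries. The 2 groups of nfkbib were intermixed, and its log2 fold change was -0.01 ± 0.09 (SE, n = 3 each, edgeR adjusted p = 0.926). Levels of nfkbiab overlapped only between injured replicate 3 and sham replicate 1.

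**Figure D4:**
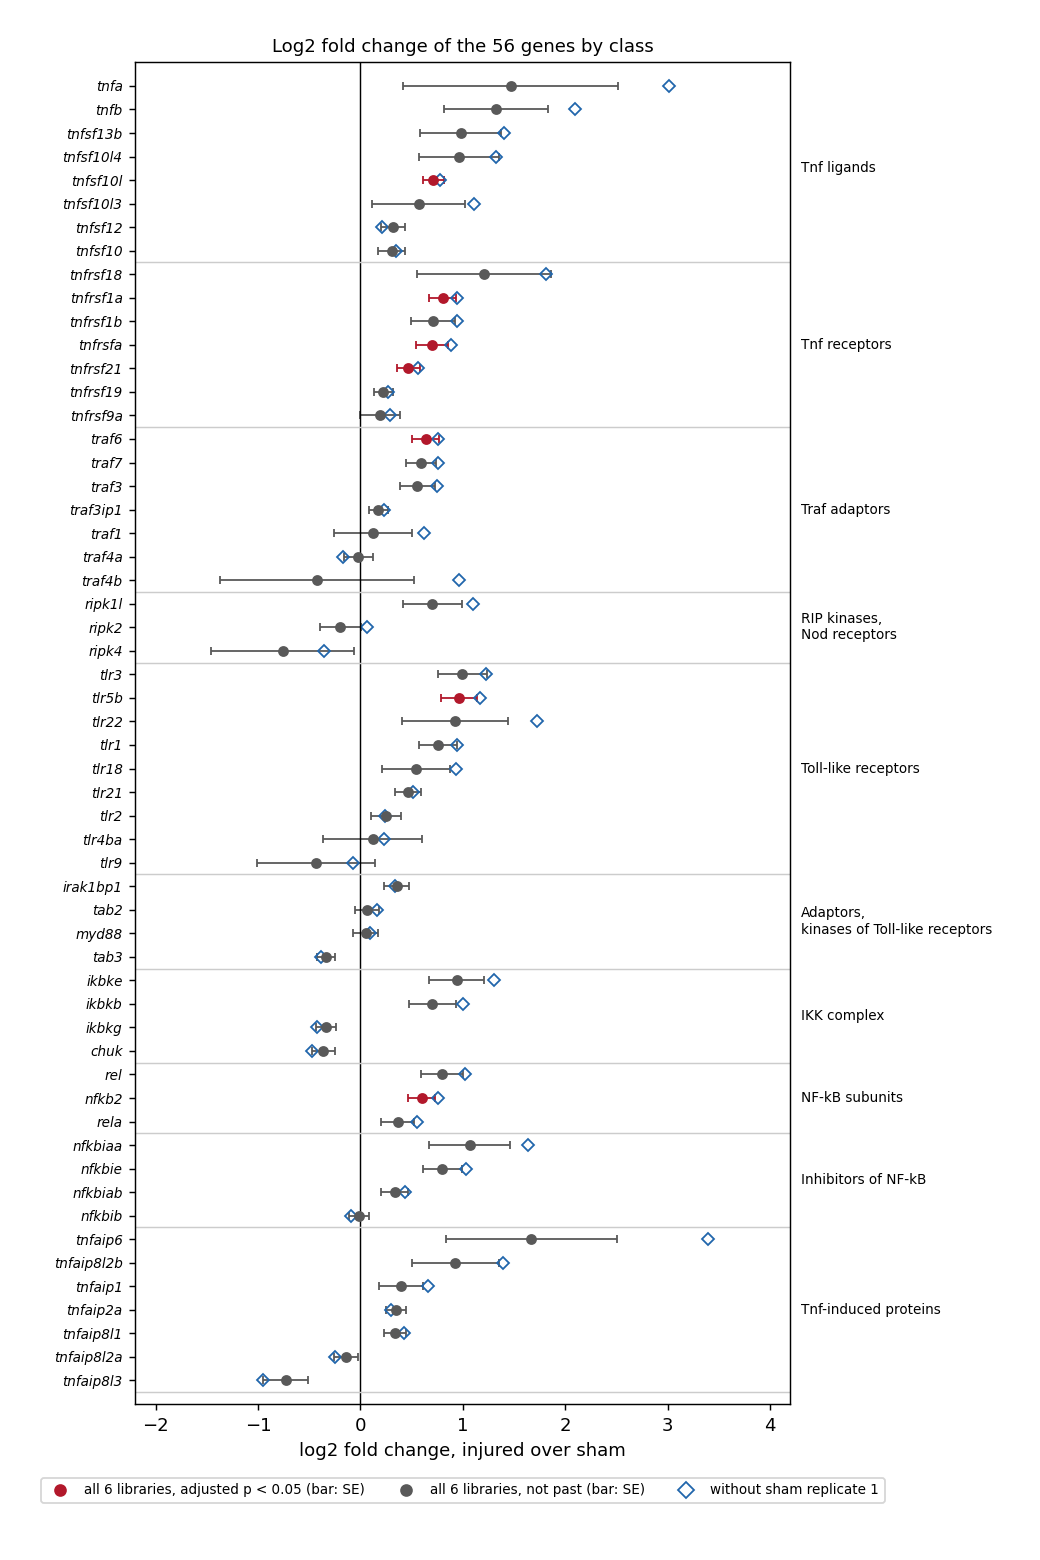
Log2 fold change, injured over sham, of the 56 genes by class, with all 6 libraries (filled points, bars for SE; red where the edgeR adjusted p was under 0.05) and without sham replicate 1 (open diamonds). The 7 red points are tnfsf10l, tnfrsf1a, tnfrsfa, tnfrsf21, traf6, tlr5b and nfkb2, between 0.47 and 0.96, and most open diamonds lie farther from 0 than the filled points.

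Genes with symbols that begin with tnfaip, for Tnf-induced protein, formed the last class of 7 members. Symbols with tnfaip8l mean likeness to tnfaip8 and by themselves do not state induction by Tnf. Outside that group the products have little in common. In edgeR's test 0 of the 7 passed, and 3 of the 7 had an unadjusted p under 0.05, where 38.2% of all genes tested did. DESeq2 called tnfaip2a and tnfaip8l1 higher and tnfaip8l3 lower, where it called 14.7% of all genes higher and 14.7% lower. The gene tnfaip2a, whose mammalian counterpart promotes membrane protrusions, had 203, 204 and 188 CPM in injured libraries, against 145, 148 and 174 CPM in sham libraries. Here sham replicate 3, not sham replicate 1, came nearest to the injured libraries, and the log2 fold change was 0.35 ± 0.09 (SE, n = 3 each, edgeR adjusted p = 0.0615; DESeq2 adjusted p = 0.00651). The gene tnfaip8l1 had 31.4 to 34.4 CPM in injured libraries and 24.1 to 29.7 CPM in sham libraries, without overlap, with a log2 fold change of 0.33 ± 0.11 (SE, n = 3 each, edgeR adjusted p = 0.0809).

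For tnfaip8l3, which encodes a phosphoinositide transfer protein, 62.5, 62.6 and 66.2 CPM were measured in injured libraries, against 70.9, 117 and 129.6 CPM in sham libraries. All injured libraries were below all sham libraries, with sham replicate 1 nearest to them. The log2 fold change of -0.73 ± 0.22 (SE, n = 3 each) was the most negative among genes whose groups did not overlap (edgeR adjusted p = 0.0720; DESeq2 adjusted p = 0.0111).

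The largest fold change of the class was that of tnfaip6, which encodes TSG-6, a secreted protein that binds and crosslinks hyaluronan. It had 52.3, 55.4 and 60.4 CPM in injured libraries, against 42.3, 5.62 and 5.04 CPM in sham libraries. Sham replicate 1 was close to the injured libraries, at 7.94 times the mean of the other sham libraries. With all 6 libraries the log2 fold change of tnfaip6 was 1.67 ± 0.84 and did not pass (SE, n = 3 each, edgeR adjusted p = 0.192; DESeq2 adjusted p = 0.179). Without sham replicate 1 it was 3.40, the largest of the 56 genes (edgeR adjusted p = 3.60e-05). The other genes of the class, tnfaip1, tnfaip8l2a and tnfaip8l2b, overlapped between groups and had log2 fold changes of -0.14 to 0.93.

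Genes of the same pathways outside the 56 were taken from a list of Tnf superfamily members under other symbols, receptor-proximal steps, kinases and adaptors, and often used NF-kB targets. Of 49 listed genes in the counts, 47 were tested, and their median log2 fold change was 0.27. In edgeR's test 3 of the 47 rose, where 5.81% of all genes rose, and 1 fell, where 4.83% of all genes fell. The genes that rose were peli1b, peli2 and irf1b. Pellino proteins are ubiquitin ligases of the Toll-like receptor route, and peli1b had 53.9, 59.0 and 61.9 CPM in injured libraries, against 38.6, 27.5 and 27.6 CPM in sham libraries, with a log2 fold change of 0.90 ± 0.15 (SE, n = 3 each, edgeR adjusted p = 0.0346). The gene that fell was map3k7, which encodes Tak1, the kinase partner of Tab3. It had 43.3, 45.0 and 41.7 CPM in injured libraries, against 51.5, 57.1 and 57.9 CPM in sham libraries, and its log2 fold change was -0.36 ± 0.08 (SE, n = 3 each, edgeR adjusted p = 0.0436). Every injured library was below every sham library, as for tab3, chuk and ikbkg, and as for 21.8% of all genes tested.

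Of the 12 often used NF-kB targets tested, 1, irf1b, rose in edgeR's test, where 5.81% of all genes rose, and 0 fell. DESeq2 called 3 of the 12 higher and 1 lower, where it called 14.7% of all genes higher and 14.7% lower. Injured and sham libraries overlapped for 7 of the 12. Positive log2 fold changes were found for 10, where 47.3% of all genes tested had one, and negative ones for 2. The 2 were nos2a, whose groups overlapped (log2 fold change -1.05), and sod2. For sod2 every injured library was below every sham library (log2 fold change -0.47 ± 0.11, SE, n = 3 each, edgeR adjusted p = 0.0514, DESeq2 adjusted p = 0.00420). For the classical targets il1b and mmp9, as for tnfb and nfkbiaa, sham replicate 1 was far above the other sham libraries. The cytokine gene il1b had 5.50, 34.4 and 27.8 CPM in injured libraries, against 16.6, 2.32 and 2.25 CPM in sham libraries, so that injured replicate 1 was below sham replicate 1 (log2 fold change 1.68 ± 1.01, SE, n = 3 each, edgeR adjusted p = 0.260). The matrix protease gene mmp9 had 615, 646 and 698 CPM in injured libraries, against 374, 95.4 and 106 CPM in sham libraries (log2 fold change 1.77 ± 0.55, SE, n = 3 each, edgeR adjusted p = 0.0770). The groups of mmp9 did not overlap, and DESeq2 on all 6 libraries called it higher (adjusted p = 0.0387), but not il1b (DESeq2 adjusted p = 0.256). Without sham replicate 1 edgeR called both il1b and mmp9 higher, with log2 fold changes of 3.30 and 2.70 (edgeR adjusted p = 0.0185 for il1b and 3.99e-05 for mmp9). In that fit 22 of the listed genes in all were called higher and 7 lower, where 29.0% of all genes were called higher and 28.2% lower.

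Many of the 56 genes are expressed by immune cells, and marker genes of such cells were read from the same fit. Of 17 macrophage and microglia markers, 4 (mpeg1.1, havcr1, spi1a and apoeb) rose in edgeR's test, where 5.81% of all genes rose. Without sham replicate 1, where edgeR called 29.0% of all genes higher and 28.2% lower, it called 16 of these markers higher and 1, aif1l, lower. Since apoeb made up most of their sum, the other 16 markers were also summed, giving 1309.7, 1459 and 1409 CPM in injured libraries and 1242, 814 and 770.2 CPM in sham libraries. Sham replicate 1 was again nearest to the injured libraries. The neutrophil markers, 8 genes, summed to 171 to 198 CPM in injured libraries and 115 to 221 CPM in sham libraries, and 0 of the 7 tested passed in edgeR, in DESeq2 or at an unadjusted p under 0.05 in edgeR. In the edgeR fit without sham replicate 1, 2 neutrophil markers (csf3r and mmp13a) were called higher and 1 (npsn) lower. The lymphocyte markers, 11 genes, summed to 29.7 to 31.1 CPM in injured libraries and 31.7 to 44.8 CPM in sham libraries. Of the 8 tested, 0 passed in edgeR, and DESeq2 called 2 (il7r and il2rb) lower, where it called 14.7% of all genes lower. Without sham replicate 1 edgeR called 0 of these markers higher and 5 lower, where 28.2% of all genes were called lower. Summed CPM of 7 ependymo-radial glia markers was 17162.5 to 17962 in injured libraries, against 11907.5, 16037.5 and 14303 in sham replicates 1 to 3. Here sham replicate 1 was farthest from the injured libraries. For 7 endothelium markers the sum was 266.9 to 271.1 in injured and 213.7 to 247.6 in sham libraries. In edgeR's test 2 glia markers (sox2 and foxj1a) rose and 0 fell, and 1 endothelium marker (pecam1) rose and 1 (kdrl) fell. Over all genes 5.81% rose and 4.83% fell. Of all marker genes read, only the oocyte gene h1m was at 0 in every library. In bulk tissue, more cells of a type cannot be told apart from more RNA per cell, nor fewer cells from less RNA, and the part of cell composition in the differences of the 56 genes was not tested.

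The read minimum of the rule left out 4 genes whose symbols matched: irak4, tlr4bb, tnfsf13 and tnfsf18. Just below the minimum, tnfsf13 had 11, 9 and 8 reads in injured libraries and 3, 3 and 0 reads in sham libraries. Just inside it, tnfa and tnfrsf18 had 10 or more reads in 3 libraries, and tlr4ba and tlr9 in 4. All 56 genes passed edgeR's filter on low counts, and 51 had at least 10 reads in every library. Genes with close copies, such as nfkbiaa and nfkbiab, traf4a and traf4b, tnfaip8l2a and tnfaip8l2b, and the tnfsf10 group, remain less certain, since reads that fit more than 1 copy could be lost or split.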

How the data were processed

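Bulk RNA-seq was performed on 3 injured and 3 sham spinal cord samples, with TruSeq libraries and 50-bp single-end reads. The authors aligned reads to danRer10 with TopHat2 (version 2.2.1 in the submitters' processing notes), filtered them with SAMtools 1.3.1 and deposited raw gene counts made with HTSeq 0.6.0. No source states the annotation or whether strand was used, and overlapping and antisense genes cannot be separated. HTSeq's rows that name no gene held 41.8% to 42.6% of the total in injured files and 44.3% to 51.9% in sham files, and were left out.

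Counts were tested with edgeR 4.0.16 in R 4.3.3 (TMM, filterByExpr with a minimum count of 10 and a minimum total of 15, quasi-likelihood test, Benjamini-Hochberg over 12804 genes, threshold 0.05), and the code was tested on simulated data. DESeq2 1.42.0 and limma 3.58.1 (voom with sample weights), other scalings and filters, a replicate block and the removal of each library were alternatives. The SE given with a log2 fold change was derived from edgeR's test. It is the absolute log2 fold change divided by the square root of the test's F statistic, so it restates that test. No 2 libraries of a group agreed within sampling noise.

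The 56 genes, classes and lists were chosen with earlier results of these data known. Named were tnfa and tnfb, all NF-kB subunit, inhibitor and IKK genes, every gene past the threshold, and up to 3 genes per class by smallest adjusted p (33 genes in all). Other genes named with their own values, such as tnfaip6, myd88, tlr22, tnfrsf1b, tnfsf13b and traf4a, were chosen after their values were seen. All 60 matching symbols were found in RefSeq's zebrafish gene table, which was used for names only. The symbols nfkb1, relb and tnfaip3 were absent from the counts, so these genes could not be read under them. Sequences of promoters and proteins were not analysed here.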

Additional observations from a re-analysis of the deposited data

How the results depend on the processing

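None of the 33 named genes changed direction under any alternative while called. Over all genes, 744 higher and 618 lower calls became 1878 and 1888 with DESeq2, 3740 and 3805 with limma-voom, and 0 and 0 with the replicate block. With 1 library left out, 0 to 3750 were called higher and 0 to 3647 lower, the highest values without sham replicate 1. Among the 56 genes, 7 higher and 0 lower became 20 and 4 with DESeq2, 35 and 5 with limma-voom, 11 higher with a minimum of 10 counts in every library (51 genes tested), 0 and 0 with the replicate block, and 0 to 36 higher and 0 to 6 lower with 1 library left out.

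Higher calls by class with DESeq2 were 4 each for Tnf receptors and Toll-like receptors, 3 for Traf adaptors, 1 for Tnf ligands and 2 each for the IKK complex, inhibitors of NF-kB, NF-kB subunits and Tnf-induced proteins, with lower calls of 2 for the IKK complex and 1 each for Tnf-induced proteins and the adaptors and kinases of Toll-like receptors. With limma-voom higher calls were 6 for Toll-like receptors, 5 each for Tnf receptors, Traf adaptors and Tnf-induced proteins, 4 for Tnf ligands, 3 each for NF-kB subunits and inhibitors of NF-kB, 2 for the IKK complex and 1 each for RIP kinases and for adaptors and kinases of Toll-like receptors, and lower calls were 2 each for the IKK complex and Tnf-induced proteins and 1 for adaptors and kinases of Toll-like receptors. With 10 counts in every library, calls were 3 each for Tnf receptors and Toll-like receptors, 2 for Traf adaptors and 1 each for Tnf ligands, NF-kB subunits and inhibitors of NF-kB. Upper-quartile scaling left 0 for NF-kB subunits. Classes held 9 Toll-like receptors, 8 Tnf ligands, 7 each of Tnf receptors, Traf adaptors and Tnf-induced proteins, and 3 or 4 genes in each other class. Of all 12804 genes tested, DESeq2 called 1878 higher and 1888 lower, and limma-voom 3740 higher and 3805 lower. With 10 counts in every library, 883 of 12253 genes were called higher and 757 lower. The replicate block left 0 in every class. With 1 library left out, higher calls ranged from 0 to 6 for Tnf ligands and Toll-like receptors, 0 to 5 for Tnf receptors and Tnf-induced proteins, 0 to 4 for Traf adaptors, 0 to 3 for NF-kB subunits and inhibitors of NF-kB, 0 to 2 for the IKK complex, and 0 to 1 for RIP kinases and for adaptors and kinases of Toll-like receptors. Lower calls ranged from 0 to 2 for the IKK complex and Tnf-induced proteins, and 0 to 1 for Traf adaptors and for adaptors and kinases of Toll-like receptors.

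For the 47 pathway genes tested outside the 56, 3 higher and 1 lower became 9 and 4 with DESeq2 and 21 and 7 with limma-voom. The replicate block left 0 and 0, and 2 were lower with upper-quartile scaling or 10 counts in every library (45 genes tested). With 1 library left out, 0 to 22 were higher and 0 to 7 lower. Of all 12804 genes tested, DESeq2 called 1878 higher and 1888 lower, and limma-voom 3740 higher and 3805 lower. Lower calls over all genes were 701 with upper-quartile scaling and 757 with 10 counts in every library. Without sham replicate 1, edgeR called 29.0% of all genes higher and 28.2% lower.

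The labels number injured and sham libraries 1 to 3 and do not say whether same-numbered libraries were prepared together. Deviations of same-numbered libraries correlated at -0.16, -0.03 and 0.07, and no library correlated best with its own number. With 3 libraries per group, and sham replicate 1 apart from the others, these correlations cannot exclude a pairing. The replicate block removed all 7 calls. Precision is limited by 3 libraries per group and by the spread among sham libraries. Read numbers limit tnfa, tnfrsf18, tlr4ba and tlr9. The causes of these changes were not tested, beyond the fewer samples or genes that the settings themselves imply.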
